A study of Mus musculus with 6 samples.

Results

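Pericytes and smooth muscle cells, together called mural cells, wrap the walls of blood vessels, and 10 genes that mark them were followed in mouse mammary tumors given the kinase inhibitor TKI258 or water. All 10 of the 10 listed genes were measured, out of 19937 genes that could be named from a single-gene probe set, and each had its own probe set. They fall into 6 pericyte genes (Rgs5, Cspg4, Mcam, Kcnj8, Abcc9 and Higd1b) and 4 genes of the contractile apparatus (Des, Acta2, Myh11 and Cnn1). The list was fixed by gene name, with no cut on signal.

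The tumors grew from 4T1 cells, a carcinoma line of BALB/c mouse mammary gland, of which 750000 were placed in a mammary gland of each Balb/C mouse. Treatment by mouth began on day 7 and was given every day for 14 days, as water in 3 mice and as TKI258 at 40 mg/kg in 3 mice. TKI258, also named dovitinib, blocks receptor tyrosine kinases that include the PDGF, VEGF and FGF receptors. RNA of each whole tumor was hybridized to its own Affymetrix array, and all values are log2 signals, so a difference of 1 is a doubling. Both groups carried the same line in the same strain, and the sex and age of the mice were not given in the sources used here. In whole tumors, fewer cells of a type and less RNA per cell cannot be told apart.

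Pericytes are recruited to new capillaries when endothelial cells release PDGF-B, which acts on the receptor PDGFRB on the pericyte, and the angiopoietin ligands then act on the TIE2 receptor of the endothelium to settle or loosen the contact. Smooth muscle cells of larger vessels instead hold a dense contractile apparatus, whose genes are driven by serum response factor and its partner myocardin. None of the markers belongs to mural cells alone. Mcam is also made by endothelium, Des by skeletal muscle, and Acta2, Myh11 and Cnn1 by mammary myoepithelium, while Acta2 also marks activated fibroblasts.

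Acta2 is a contractile gene, and the contractile genes did not share a tumor order. Rgs5 is a pericyte gene that was high in a single TKI258 tumor. Mcam had the greatest difference between groups among the 10. The regulatory sequences of these 3 genes are shown. These are the 250 bases before the annotated start, 5′ to 3′, from RefSeq on build GRCm38.p6, with CArG elements, the binding motif of serum response factor, in capitals.
Acta2: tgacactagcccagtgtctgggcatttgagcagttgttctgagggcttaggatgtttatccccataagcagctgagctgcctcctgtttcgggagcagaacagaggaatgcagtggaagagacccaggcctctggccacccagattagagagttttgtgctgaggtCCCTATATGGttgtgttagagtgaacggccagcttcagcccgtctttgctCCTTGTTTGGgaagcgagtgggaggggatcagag
Rgs5: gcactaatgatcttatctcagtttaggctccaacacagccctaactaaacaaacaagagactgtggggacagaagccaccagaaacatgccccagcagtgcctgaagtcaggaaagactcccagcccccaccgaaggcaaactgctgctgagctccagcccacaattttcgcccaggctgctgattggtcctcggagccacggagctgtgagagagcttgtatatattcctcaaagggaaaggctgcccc
Mcam: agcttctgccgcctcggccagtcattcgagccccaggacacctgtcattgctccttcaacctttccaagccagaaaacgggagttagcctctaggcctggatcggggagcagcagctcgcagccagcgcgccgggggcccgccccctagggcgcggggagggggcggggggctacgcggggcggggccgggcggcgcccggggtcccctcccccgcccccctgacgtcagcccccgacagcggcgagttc
The Acta2 stretch lies at chr19:34255374-34255623 on the minus strand, the Rgs5 stretch at chr1:169655251-169655500 on the plus strand and the Mcam stretch at chr9:44134408-44134657 on the plus strand. A CArG element was searched as CCNNNNNNGG with at most 1 of the 6 inner letters other than A or T, a pattern that reads the same way on both strands. Acta2 held 2 such elements, from 84 to 75 and from 34 to 25 bases before the start, each with 1 such letter. The other 7 genes with an entry (Rgs5, Cspg4, Mcam, Kcnj8, Abcc9, Des and Cnn1) had no match in this window, and 8.59% of the 32851 promoters in the table held at least 1. The window of Mcam was 73.6% G and C, against 53.6% for both Rgs5 and Acta2.

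The 6 arrays had medians between 6.38 and 6.44. Pairs of arrays correlated at 0.988 to 0.992 within water and 0.981 to 0.993 within TKI258, and the tumor labelled TKI258 replicate 3 stood apart in B cell and fat genes. The 9 measured B cell genes averaged 8.81 there, compared with 5.04 and 5.20 for TKI258 replicates 1 and 2 and 6.89, 4.90 and 5.09 for water, so water replicate 1 was also high. Its mean over the 10 adipocyte genes was 9.00, the highest of the 6 tumors. Water replicate 2 stood apart in skeletal muscle genes and, together with water replicate 3, in keratinocyte genes, which averaged 6.95 and 6.54 there and 4.82 to 4.99 in the other 4 tumors.

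No mural cell gene separated the treatments beyond what limma allows once all probe sets are counted. Signals of 7 of the 10 genes averaged lower in TKI258 tumors, where 43.4% of all genes did, and the median difference over the 10 was -0.19, against 0.02 over all genes. Of the pericyte genes, 5 of 6 averaged lower, with a median of -0.21. The contractile genes were split 2 and 2, with Des (-0.23) and Acta2 (-0.19) lower and Myh11 (0.20) and Cnn1 (0.02) higher. Among 19 other pericyte genes, 12 averaged higher and 7 lower (median 0.09). Their mean was 6.94 in TKI258 replicate 3, and 6.57 to 6.60 in the other tumors. With p-values adjusted over all 34760 probe sets, 0 of the 10 passed 0.05 in limma, and 0% of probe sets did. Before adjustment, 1 of the 10 (Mcam) had a limma p under 0.05, as did 7.14% of genes. For 1 of the 10 (Higd1b) the 3 TKI258 tumors lay wholly below the 3 water tumors, against 6.49% of genes wholly lower and 15.1% not overlapping in either direction.

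**Figure D1:**
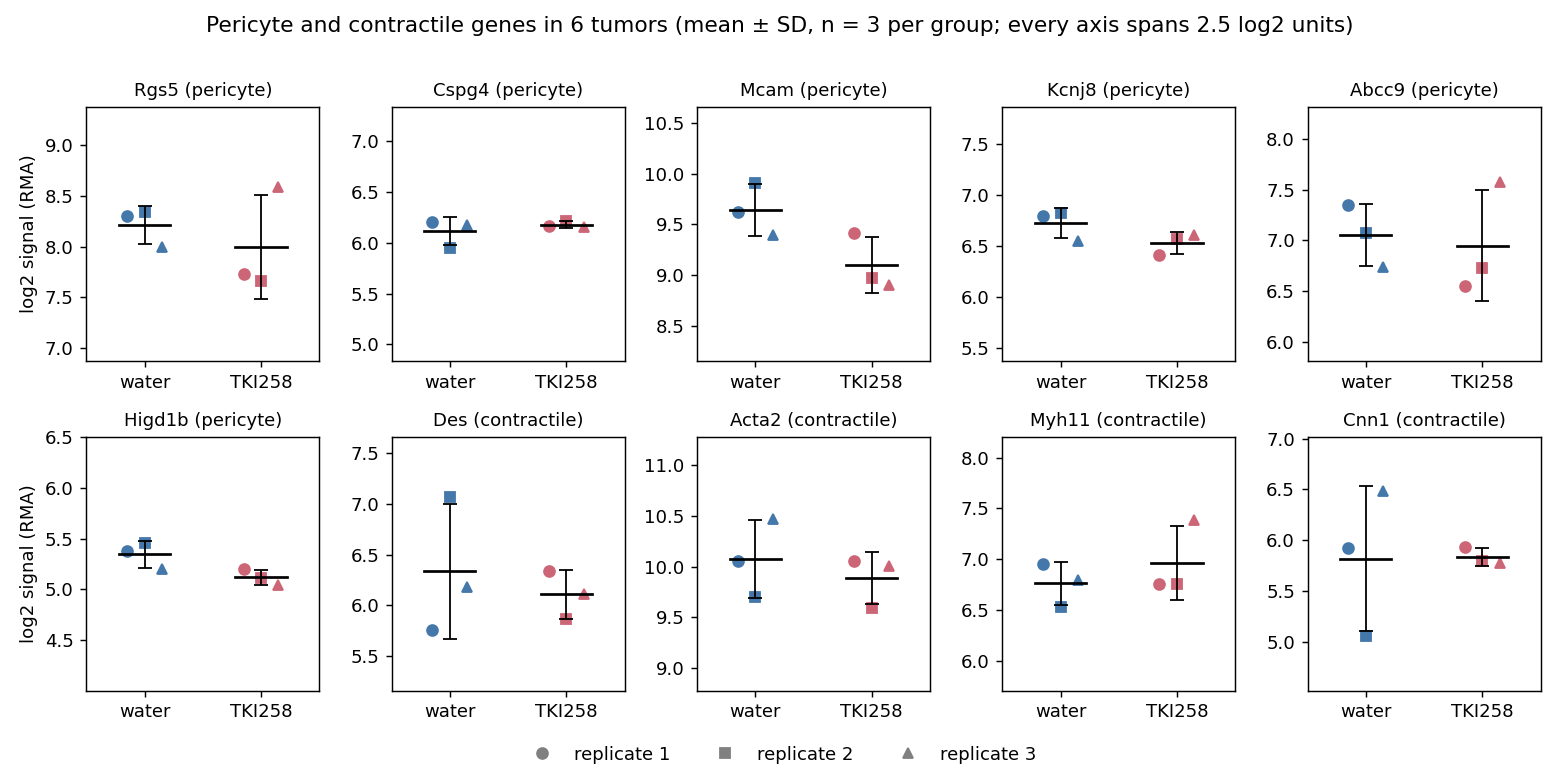
Log2 signal (y axis) of each gene in the 3 water and 3 TKI258 tumors (x axis, 1 symbol per replicate), with bars for the mean and whiskers for the SD. The groups overlap for every gene except Higd1b, where a gap of less than 0.01 separates water replicate 3 from TKI258 replicate 1.

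Mcam, which encodes the adhesion molecule CD146 of pericytes and endothelium, had the greatest difference of the 10. Its signal was 9.62, 9.90 and 9.39 in water replicates 1, 2 and 3 and 9.42, 8.97 and 8.91 in TKI258 replicates 1, 2 and 3. Only TKI258 replicate 1 reached into the water range, just above water replicate 3. The means were 9.64 ± 0.26 and 9.10 ± 0.28 (SD, n = 3), a 1.45-fold lower level (-0.54 ± 0.18, log2 difference ± SE, 95% interval -0.98 to -0.10). This did not pass (limma adjusted p = 0.590). The difference ran from -0.70 without TKI258 replicate 1 to -0.41 without water replicate 2 when single tumors were left out.

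Higd1b encodes a small mitochondrial membrane protein used as a pericyte marker. Its signals were 5.38, 5.46 and 5.20 in the water tumors and 5.20, 5.11 and 5.05 in the TKI258 tumors, all below the median of every array. Every TKI258 tumor was below every water tumor, but the nearest values were 5.1983 and 5.2000. The difference was -0.23 ± 0.10 (95% interval -0.47 to 0.01, limma adjusted p = 0.636).

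Kcnj8 and Abcc9 encode the pore KIR6.1 and the sulfonylurea receptor SUR2, which together build the ATP-sensitive potassium channel of mural cells. They are neighbours on chromosome 6, with no annotated gene between them in GRCm38.p6. Kcnj8 stood at 6.79, 6.83 and 6.55 in water and at 6.41, 6.56 and 6.61 in TKI258 tumors, so only water replicate 3 fell within the TKI258 range. The Kcnj8 difference was -0.20 ± 0.11 (95% interval -0.46 to 0.07, limma adjusted p = 0.676). Abcc9 stood at 7.35, 7.07 and 6.74 in water and at 6.55, 6.72 and 7.58 in TKI258 tumors, with both the highest and the lowest value in treated tumors. Its difference was -0.10 ± 0.29 (95% interval -0.79 to 0.59, limma adjusted p = 0.930). The sign for Abcc9 turned when any of 3 tumors was left out, to 0.05 (water replicate 1), 0.10 (TKI258 replicate 1) and 0.01 (the second TKI258 tumor), and it was -0.41 with TKI258 replicate 3 removed. In TKI258 replicate 3 Abcc9 was the highest of the 6 tumors, while Kcnj8 ranked below both water replicates 1 and 2.

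Rgs5 encodes a regulator of G protein signaling that is among the best known pericyte markers. It read 8.30, 8.34 and 7.99 in water and 7.74, 7.66 and 8.59 in TKI258 tumors. TKI258 replicates 1 and 2 were the lowest of the 6 tumors and TKI258 replicate 3 was the highest, so the SD was 0.51 in TKI258 against 0.19 in water. The difference was -0.22 ± 0.26 (95% interval -0.83 to 0.39, limma adjusted p = 0.810). Without TKI258 replicate 3 it was -0.52 (limma adjusted p = 0.579), without TKI258 replicate 2 it was -0.05, and without TKI258 replicate 1 it was -0.09. Rgs5 and Abcc9 ordered the tumors almost alike: TKI258 replicate 3 first, water replicates 1 and 2 next, then water replicate 3, and TKI258 replicates 1 and 2 last. Leaving out TKI258 replicate 3 placed Rgs5, Abcc9 and Higd1b wholly below water, at which point 26.5% of genes did not overlap. That tumor was also the highest in the B cell and adipocyte lists. The adipocyte list was next highest in TKI258 replicate 2 (8.08), where Rgs5 was lowest, and lowest in water replicate 2 (6.30). The part of these cells in the Rgs5 and Abcc9 values was not tested.

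Cspg4, the gene of the NG2 proteoglycan on the pericyte surface, varied least of the 10, with an SD of 0.10 over the 6 tumors. It was 6.21, 5.95 and 6.18 in water and 6.16, 6.22 and 6.16 in TKI258 tumors, and water replicate 2 alone lay apart, at the low end. The difference was 0.07 ± 0.10 (95% interval -0.17 to 0.30, limma adjusted p = 0.854). It was -0.01 without water replicate 2. All its signals lay below every array median.

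**Figure D2:**
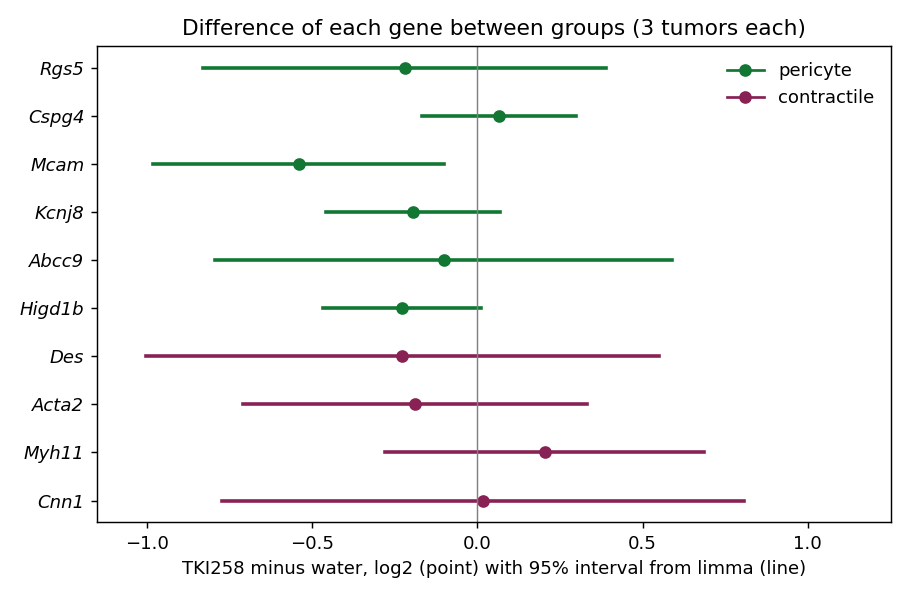
TKI258 minus water on the log2 scale (x axis) for each gene (y axis), with the limma estimate as a point and its 95% interval as a line. The interval of Mcam (-0.98 to -0.10) is the only one that leaves out 0, before adjustment over probe sets.

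Among the contractile genes, Acta2 and Cnn1 were both highest in water replicate 3, Myh11 in TKI258 replicate 3 and Des in water replicate 2. Acta2 encodes smooth muscle actin, the main thin-filament protein of these cells. It read 10.06, 9.70 and 10.46 in water and 10.06, 9.59 and 10.01 in TKI258 tumors, with water replicate 3 the highest and TKI258 replicate 2 the lowest, and the groups overlapped. The difference was -0.19 ± 0.22 (95% interval -0.71 to 0.33, limma adjusted p = 0.810), and it was 0.01 without water replicate 3, the tumor with the highest Acta2.

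Cnn1 encodes calponin 1, which binds actin and restrains myosin in smooth muscle. Water replicates 1, 2 and 3 read 5.92, 5.06 and 6.48, while the TKI258 tumors stood close together at 5.93, 5.80 and 5.78. Both extremes were therefore water tumors, and the SD was 0.72 in water against 0.09 in TKI258. The difference was 0.02 ± 0.33 (95% interval -0.77 to 0.81, limma adjusted p = 0.991). Its sign turned to -0.02 after quantile normalization, to -0.36 without water replicate 2 and to -0.03 without TKI258 replicate 1, and the value was 0.35 without water replicate 3.

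Myh11, the gene of the smooth muscle myosin heavy chain, averaged higher in TKI258 tumors. Its signal was 6.96, 6.53 and 6.80 in water and 6.76, 6.76 and 7.38 in TKI258 tumors. TKI258 replicate 3 alone exceeded the water range, as it did for Rgs5 and Abcc9. The difference was 0.20 ± 0.20 (95% interval -0.28 to 0.69, limma adjusted p = 0.782), and without TKI258 replicate 3 it was -0.01.

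Des encodes desmin, the intermediate filament of every muscle type and of many pericytes. It was 5.76, 7.06 and 6.18 in water and 6.34, 5.86 and 6.12 in TKI258 tumors, with water replicate 2 well above the others. The difference was -0.23 ± 0.32 (95% interval -1.0 to 0.55, limma adjusted p = 0.850), and without water replicate 2 it was 0.14. In the same tumor 12 of 15 skeletal muscle genes had their highest value, and the share of all genes highest there is not given here. The skeletal muscle list averaged 5.80, 6.98 and 6.09 in water and 6.24, 5.96 and 5.88 in TKI258 tumors, and 14 of its 15 genes averaged lower under treatment (median -0.25). Acta1, the actin gene of skeletal muscle, read 6.4, 8.82 and 7.69 in water and 7.90, 7.13 and 6.93 in TKI258 tumors, and Ckm, the muscle creatine kinase gene, read 7.12 in water replicate 2 and 5.82 to 6.21 in the others. The list and Des placed the same 3 tumors highest, in the same order. The 2 list genes with the strongest signal, Tnnt3 and Tnni2, were not highest there (8.46 and 8.31), and 12 of the 15 averaged below every array median. Taken relative to the list mean, Des differed by 0.04 between the groups, from 0.04 ± 0.08 in water to 0.08 ± 0.17 in TKI258 tumors (SD, n = 3). This difference was -0.0043 without water replicate 1, -0.04 without TKI258 replicate 3, 0.13 without TKI258 replicate 2 and -0.08 without both of the B cell-high tumors, water replicate 1 and TKI258 replicate 3. That measure was added after the values were seen, and the part of skeletal muscle in the Des signal was not tested.

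**Figure D3:**
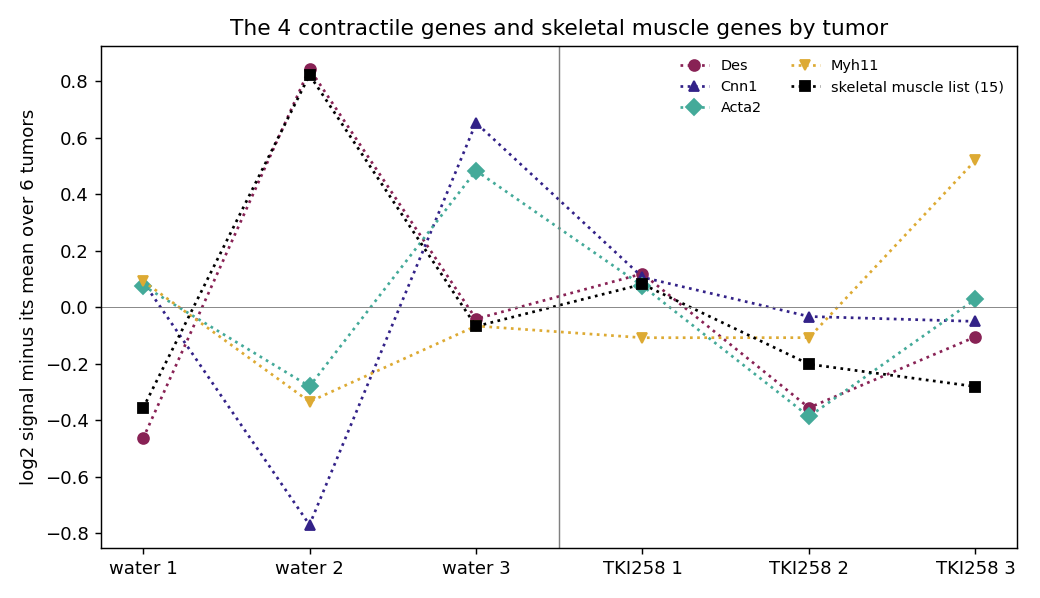
Log2 signal minus its own mean over the 6 tumors (y axis) for Des, Cnn1, Acta2, Myh11 and the mean of the 15 skeletal muscle genes, by tumor (x axis; dotted lines only guide the eye). Des and the skeletal muscle mean peak in water replicate 2 (7.06 and 6.98 before centring), where Cnn1 has its lowest value (5.06).

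The contrast between the pericyte and the contractile genes was smaller in size than its SD in water tumors, but not in TKI258 tumors. The mean of the 6 pericyte genes was 7.27, 7.26 and 7.01 in water and 6.91, 6.88 and 7.15 in TKI258 tumors, with only TKI258 replicate 3 reaching into the water range. The group means were 7.18 ± 0.15 and 6.98 ± 0.15 (SD, n = 3), a difference of -0.20. The mean of the 4 contractile genes was 7.17, 7.09 and 7.48 in water and 7.27, 7.00 and 7.32 in TKI258 tumors. Water replicate 3 lay above all TKI258 tumors and TKI258 replicate 2 below all water tumors, and the other 4 lay between them. Its group means were 7.25 ± 0.21 and 7.20 ± 0.17, a difference of -0.05.

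Within each tumor the pericyte mean minus the contractile mean was 0.10, 0.17 and -0.47 in water and -0.36, -0.13 and -0.17 in TKI258 tumors. Water replicate 3 was the lowest of all 6, so the groups overlapped. The contrast differed by -0.15 between the groups, against an SD of 0.35 in water and 0.12 in TKI258. Leaving out water replicate 3 gave -0.36, water replicate 2 gave -0.04, the first water tumor gave -0.07, and TKI258 replicate 1 gave -0.09. The contractile difference turned to 0.07 without water replicate 3 and to 0.05 without TKI258 replicate 2, while the pericyte difference stayed between -0.29 and -0.15 with any single tumor left out. With Mcam left out of the pericyte genes their difference was -0.14, and with Des moved to the pericyte genes the contractile difference was 0.01. These means were not tested, since the genes were chosen with results of these tumors known.

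The mean of endothelial genes, from the cells that pericytes cover, showed a tumor order close to that of the pericyte mean. The 6 pericyte genes themselves did not share an order. In TKI258 replicate 3, Rgs5 and Abcc9 were the highest of the 6 tumors, and Mcam and Higd1b the lowest. The mean of 15 endothelial genes was 7.71, 7.84 and 7.47 in water and 7.42, 7.37 and 7.81 in TKI258 tumors. Of the 15, 6 averaged higher and 9 lower under treatment (median -0.14), and 0 passed in limma. Unadjusted p was under 0.05 for 1 higher and 2 lower genes, against 7.14% of genes, and 2 did not overlap, against 15.1%. The 3 genes are named after their values were seen. Emcn, the gene of the sialoglycoprotein endomucin, was 7.85, 8.25 and 7.89 in water and 7.44, 7.02 and 7.29 in TKI258 tumors (-0.74 ± 0.16, limma adjusted p = 0.484), with the groups fully apart. Cdh5, the gene of the endothelial junction protein VE-cadherin, differed by -0.51 ± 0.18 (limma adjusted p = 0.599). Vwf, the gene of von Willebrand factor, was fully apart the other way (0.47 ± 0.12, limma adjusted p = 0.550). Those with the strongest signal, the TGF-beta co-receptor gene Eng and the vessel antigen gene Cd34, differed by 0.01 ± 0.15 and 0.02 ± 0.26. Water replicate 3 and TKI258 replicates 1 and 2 held the lowest 3 places in both series of means, in the same order. Pericyte minus endothelial means were -0.44, -0.58 and -0.46 in water and -0.51, -0.50 and -0.66 in TKI258 tumors, a group difference of -0.07. Over 15 alternatives that difference ran from -0.13 with the low-signal filter to 0.01 without both water replicate 1 and TKI258 replicate 3. The latter was the only positive value. This measure was also added after the values were seen, and the part of vessel content in the pericyte values was not tested.

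**Figure D4:**
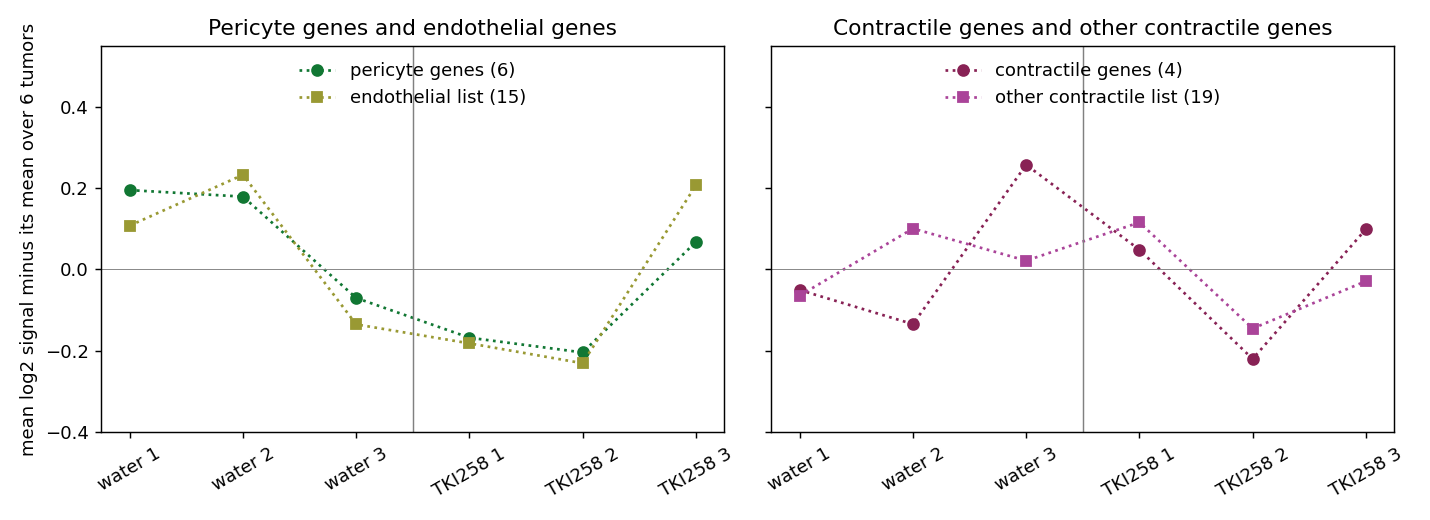
Mean log2 signal minus its mean over the 6 tumors (y axis) by tumor (x axis; dotted lines only guide the eye), for the pericyte genes with the endothelial list and for the contractile genes with the other contractile list. The pericyte and endothelial means are both lowest in TKI258 replicate 2 (6.88 and 7.37 before centring), and the contractile mean is highest in water replicate 3 (7.48).

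Of 19 other pericyte genes measured, 12 averaged higher and 7 lower in TKI258 tumors (median 0.09), where 43.4% of all genes averaged lower. In 4 of the 19, 3 higher and 1 lower, the groups did not overlap, against 15.1% of genes, and 0 passed in limma over all probe sets; 1 had an unadjusted p under 0.05, against 7.14% of genes. That gene was Steap4, a metalloreductase gene that adipocytes also express, which read 8.09, 8.01 and 8.18 in water and 8.72, 9.09 and 9.75 in TKI258 tumors (1.10 ± 0.25, limma adjusted p = 0.529). All 3 treated tumors were above all 3 water tumors. Rgs4, a relative of Rgs5, differed by -0.51 ± 0.25 (limma adjusted p = 0.652), and the pericyte transcription factor gene Foxf2 by 0.23 ± 0.10 (limma adjusted p = 0.637). The list averaged 6.60, 6.60 and 6.59 in water and 6.57, 6.57 and 6.94 in TKI258 tumors. Only TKI258 replicate 3 lay above the water tumors, and 9 of the 19 genes averaged below every array median. TKI258 replicate 3 was the highest of the 6 tumors for 11 of the 19 genes. The share of all genes highest in that tumor is not given here. The adipocyte list mean was also highest there (9.00), with 10 of 10 adipocyte genes averaging higher under treatment and 7 not overlapping, where 43.4% of all genes averaged lower and 15.1% did not overlap, and its part in these values was not tested.

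Genes that recruit and settle pericytes were mixed. Of 20 measured, 11 averaged higher and 9 lower (median 0.05), 0 passed in limma over all probe sets, and 3 higher and 1 lower had an unadjusted p under 0.05, against 7.14% of genes. Groups did not overlap for 4 of the 20, against 15.1% of genes. Pdgfrb, the receptor through which pericytes are recruited, was 8.63, 9.34 and 8.65 in water and 9.22, 8.42 and 8.41 in TKI258 tumors (-0.19 ± 0.28, limma adjusted p = 0.858), and its ligand gene Pdgfb differed by -0.11 ± 0.15 (limma adjusted p = 0.842). Notch3, the mural Notch receptor gene, differed by -0.10 ± 0.15 (limma adjusted p = 0.869). The angiopoietin genes differed in opposite directions. Angpt1, whose product comes from mural cells and settles vessels, was 8.56, 8.65 and 8.30 in water and 10.34, 10.28 and 9.45 in TKI258 tumors (1.52 ± 0.25, limma adjusted p = 0.484). Angpt2, whose product comes from endothelium and loosens the contact, was 7.65, 8.80 and 7.55 in water and 7.21, 6.83 and 6.76 in TKI258 tumors (-1.06 ± 0.34, limma adjusted p = 0.574). Both sets of tumors were fully apart for each gene. The chemokine gene Cxcl12 differed by 0.97 ± 0.28 (limma adjusted p = 0.572).

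The other contractile genes and their regulators differed in both directions. Of 19 contractile genes, 8 averaged higher and 11 lower (median -0.04), and of 11 genes of the serum response factor and myocardin pathway, 5 averaged higher and 6 lower (median -0.02). None of these had a limma p under 0.05, before or after adjustment, against 7.14% of genes before it. The contractile genes ran from -0.33 (Smtn) to 0.50 (Mustn1, named after its values were seen), and 2 of the 19 did not overlap, Pln higher and Ppp1r14a lower under treatment, against 15.1% of genes. Tagln, which encodes the actin-binding protein transgelin, was 8.10, 7.51 and 8.77 in water and 8.59, 7.67 and 8.15 in TKI258 tumors (0.01 ± 0.35, limma adjusted p = 0.995). Water replicate 3 was highest and water replicate 2 lowest, as for Cnn1. Smtn (smoothelin), Pln (phospholamban) and Tpm1 (tropomyosin 1) had the smallest p of the contractile genes, with differences of -0.33 ± 0.14, 0.25 ± 0.10 and -0.19 ± 0.11 (limma adjusted p = 0.620, 0.624 and 0.677). Srf differed by -0.02 ± 0.10 and Myocd, at signals of 3.91 to 4.30, by -0.02 ± 0.13 (limma adjusted p = 0.959 and 0.968). Fhl2, Rhoa and Mrtfb differed by -0.19 ± 0.18, -0.05 ± 0.08 and -0.04 ± 0.08 (limma adjusted p = 0.775, 0.879 and 0.881).

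Other cell types, some of which share the contractile markers, gave these values in the same tumors. Myoepithelial genes, 8 in all, averaged 5.98, 6.93 and 6.93 in water and 6.20, 5.87 and 6.41 in TKI258 tumors, with Krt5 at 6.60, 9.35 and 9.37 in water and 6.47, 6.11 and 7.34 under treatment, and Krt14 at 6.48 to 8.94 in water and 6.60 to 7.41 under treatment. The keratin genes were high in water replicates 2 and 3, as the keratinocyte list was, and these were the lowest and the highest tumors for Cnn1. Of the 8, 3 averaged higher and 5 lower under treatment. The 3 higher genes (Oxtr, Sncg and Tspear, named after their values were seen) were not high in those tumors, with Oxtr and Tspear lowest in water replicate 2 (5.13 and 4.95) and Sncg lowest in water replicate 3 (6.85). Fibroblast genes, 12 in all, averaged 9.31, 9.05 and 9.52 in water and 9.60, 9.43 and 9.81 in TKI258 tumors, with 10 of 12 higher (median 0.31). Of the 12, 4 had an unadjusted limma p under 0.05, all higher, against 7.14% of genes. In 3, all higher, the groups did not overlap, against 15.1% of genes, and 0 passed after adjustment. The collagen genes Col1a1 and Col1a2 were highest in water replicate 3 (11.67 and 11.46), as Acta2 was, and lowest in water replicate 2 (10.70 and 10.56). Acta2 was instead lowest in TKI258 replicate 2 (9.59), and Col1a1 was nearly as high in TKI258 replicate 3 (11.64). Of the 12 fibroblast genes, 4 were highest in water replicate 3 and 6 in TKI258 replicate 3. Cardiac muscle genes (5) averaged 6.25 to 6.42 in water and 6.33 to 6.57 under treatment, and Schwann and neural genes (6) averaged 5.42 to 5.66 and 5.48 to 5.80. Tumor epithelial genes (8) averaged 8.33 to 9.03 in water and 8.92 to 9.22 under treatment, with 6 higher and 2 lower. Of these, 3 higher and 1 lower had an unadjusted limma p under 0.05, against 7.14% of genes. Groups did not overlap for 3 higher and 1 lower, against 15.1% of genes, and 0 passed after adjustment. The part of each cell type in the mural values was not tested.

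Genes outside the list were compared with the pericyte and contractile means, leaving out those whose SD over the 6 tumors was small beside the mean's. Of those compared, Rbm27, Apold1 and Zmat2 had centred values closest to the pericyte mean, with root mean square differences of 0.04 log2 units each. Rbm27, the closest, was 8.99, 9.07 and 8.80 in water and 8.72, 8.71 and 8.91 in TKI258 tumors. Apold1, a gene of endothelial cells, was 7.14, 7.11 and 6.96 in water and 6.85, 6.79 and 6.99 in TKI258 tumors. Zmat2 was 9.55, 9.68 and 9.37 in water and 9.26, 9.23 and 9.47 in TKI258 tumors. Closest to the contractile mean were Slurp2, Itpk1 and Olfr613 (0.04, 0.05 and 0.05). With 6 tumors, and 16731 and 16774 genes compared, such likeness is a description only.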

How the data were processed

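The deposited values are log2 signals of 34760 probe sets on 6 arrays, all used. RMA, affy and limma are named in the submitters' processing notes; RMA corrects background, normalizes arrays together and summarizes probes. Neither tool versions nor a genome build is given in the sources used here. Precision is limited by the number of arrays. The platform annotation gave 21640 probe sets 1 gene, 1321 several and 11799 none. Symbols were checked by Entrez number against RefSeq (GRCm38.p6): 21553 matched and 0 changed. Where several probe sets named a gene, the one strongest on average stood for it, giving 19937 genes.

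TKI258 was compared with water by limma 3.58.1 in R 4.3.3 (group only, eBayes, two-sided, no filter), with Benjamini-Hochberg adjustment over all probe sets and a threshold of 0.05. The code of the fit was run on simulated arrays with known changes and independent errors, unlike these tumors, which differed in B cell, fat and muscle genes. This checks the code only. Intervals are 95% from the moderated fit. The titles name biological replicates and the series text individual tumors, so spreads are between tumors. The genes, lists and rules were chosen with earlier results of these data known. Genes named beyond the 10 were the 3 with the smallest p of each pathway list, fixed members such as Pdgfrb and Srf, the 2 with the strongest signal in a cell type list where used, and the 3 closest in profile. Some listed genes were not analysed here. Alternatives were quantile normalization, median centring, a low-signal filter, other limma priors, array weights, averaged probe sets, a replicate block and left-out tumors. No set test was run.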

Additional observations from a re-analysis of the deposited data

How the results depend on the processing

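In every alternative run, none of the 10 genes that was tested passed in limma, also at a threshold of 0.1, and the lowest adjusted p among them was 0.512 (Mcam, low-signal filter). The filter removed Cspg4, Higd1b, Des and Cnn1, so it tested 6. Rgs5, Mcam and Kcnj8 averaged lower in each setting, and Higd1b in each that kept it. Without 1 tumor, the difference changed sign for Abcc9 (range -0.41 to 0.10), Cspg4 (-0.014 to 0.11), Des (-0.52 to 0.14), Acta2 (-0.37 to 0.0077), Myh11 (-0.0051 to 0.31) and Cnn1 (-0.36 to 0.35). Cnn1 also changed sign with quantile normalization (-0.017), median centring (-0.00091) and array weights (-0.14). The number of genes without overlap was 2 after quantile normalization or median centring (Kcnj8 and Higd1b; 14.4% and 14.3% of genes), 0 of 6 with the low-signal filter (14.9%), and 3 with water replicate 1 and TKI258 replicate 3 both left out (40.9% of genes). It was 1 to 3 without 1 tumor, where 22.8% to 27.8% of genes did not overlap. The labels give no shared source for tumors with the same replicate number. Correlations of deviations between same-numbered tumors (-0.23, 0.19 and 0.01) cannot decide it with so few tumors. A replicate block left the pericyte difference at -0.20 and 0 genes called. A pseudocount does not apply to log2 values. Leaving single genes out of a mean, and the means relative to endothelial or skeletal muscle genes, were chosen after seeing the data. Each of the 10 has 1 probe set, so averaging probe sets gave equal values.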
